A study of Mus musculus with 7 samples.

Results

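The genes described here are those of endoplasmic reticulum (ER) stress and protein folding, a set of 44 genes chosen by name. They take in the stress sensors of the ER, the transcription factors these sensors act through, targets of the integrated stress response, ER chaperones, oxidoreductases, and the machinery of ER-associated degradation and translocation. Of the 44 genes, 42 had a row among the 34082 gene names measured. ERO1L and ERO1LB, the ER oxidases, had none under those names. Of the 42 genes, 41 reached the mean of 0.5 TPM (transcripts per 1000000) required for testing, and ATF3 did not.

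Islets of Langerhans were taken from C57BL/6 mice at day 15 of pregnancy, and the RNA of each mouse gave 1 library. In 4 mice, here βPrlR+/- mice (titled CkoWt in the labels), the prolactin receptor gene Prlr was deleted by tamoxifen-inducible Pdx1CreER, a Cre recombinase driven by the Pdx1 promoter. In the other 3, Prlr+/- mice, 1 copy was missing in every tissue, with no Cre and no tamoxifen. The labels call the conditional deletion homozygous while the study's methods call it heterozygous, and the term CkoWt is not explained. By the labels the mice were 3 to 4 months old, while the study's methods state a somewhat higher age. Islets were collected by hand from collagenase-digested pancreas and, by the study's methods for islet isolation, kept in culture overnight.

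The comparison asks whether losing the receptor outside the β-cell as well as in it goes with a different expression of these genes. Deletion type, Cre and tamoxifen all change at once from one group to the other and cannot be told apart, and no wild-type mouse was in the series. ESR1, the estrogen receptor gene whose ligand-binding part is fused to inducible Cre, averaged 69.7 ± 14.7 scaled TPM in βPrlR+/- islets (SD, n = 4) and 0.229 ± 0.0433 in Prlr+/- islets (SD, n = 3), and the groups did not overlap. Reads of the Cre fusion and of the native gene were not told apart. PRLR itself had 45.1 ± 8.19 in βPrlR+/- and 40.8 ± 8.97 in Prlr+/- islets, and the groups overlapped. Scaled TPM is the deposited TPM divided by a size factor for each mouse, needed because the insulin genes took 46.1% to 58.9% of the TPM. In whole islets, fewer cells of a type and less RNA per cell cannot be told apart.

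A β-cell makes very large amounts of proinsulin, which folds and forms its disulfide bonds in the ER. When unfolded protein builds up there, 3 kinds of sensor in the ER membrane respond. IRE1α (ERN1) splices XBP1 mRNA, PERK (EIF2AK3) phosphorylates eIF2α, which slows translation but favours that of ATF4, and ATF6 and ATF6B are cut in the Golgi to release transcription factors. Together these raise chaperones and degradation enzymes, and the ATF4 arm, which other kinases also feed as the integrated stress response (ISR), raises amino acid genes and, when prolonged, DDIT3 (CHOP).

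No gene of the set passed the test between the groups. With limma on log2(scaled TPM + 1), 0 of the 41 genes reached an adjusted p below 0.05, against 0.0674% of the 14840 genes tested. The smallest adjusted p among them was 1.0. At an unadjusted p under 0.05 the count was also 0, against 4.52% of all genes tested, and the smallest unadjusted p was 0.0858, for SDF2L1. In 0 of the 41 did the values of the groups separate without overlap, against 4.95% of all genes tested. The median log2 fold change of Prlr+/- over βPrlR+/- mice was 0.03, and over all genes tested it was 0.00. The log2 fold change was above 0 for 25 genes and below 0 for 16, or 39.0%, against 48.3% of all genes tested. The median of the set was -0.016 without βPrlR+/- mouse 3 and -0.004 without Prlr+/- mouse 3. The count of separated genes rested on particular mice: 5 separated without βPrlR+/- mouse 1 (12.8% of all genes then), 5 without Prlr+/- mouse 1 (10.8%) and 2 without βPrlR+/- mouse 3 (7.49%). On TPM as deposited, with no size factor, 1 gene separated (8.71%).

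The intervals show how large a difference these 7 mice left room for. The 95% interval of the log2 fold change lay between -0.5 and 0.5 for 35 of the 41 genes and between -0.3 and 0.3 for 22. It reached 0.5 or further for the other 6, which were ATF4, DDIT3, TRIB3, CHAC1, ASNS and DERL3. Of these 6, all but DERL3 belong to the ATF4 arm.

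**Figure D1:**
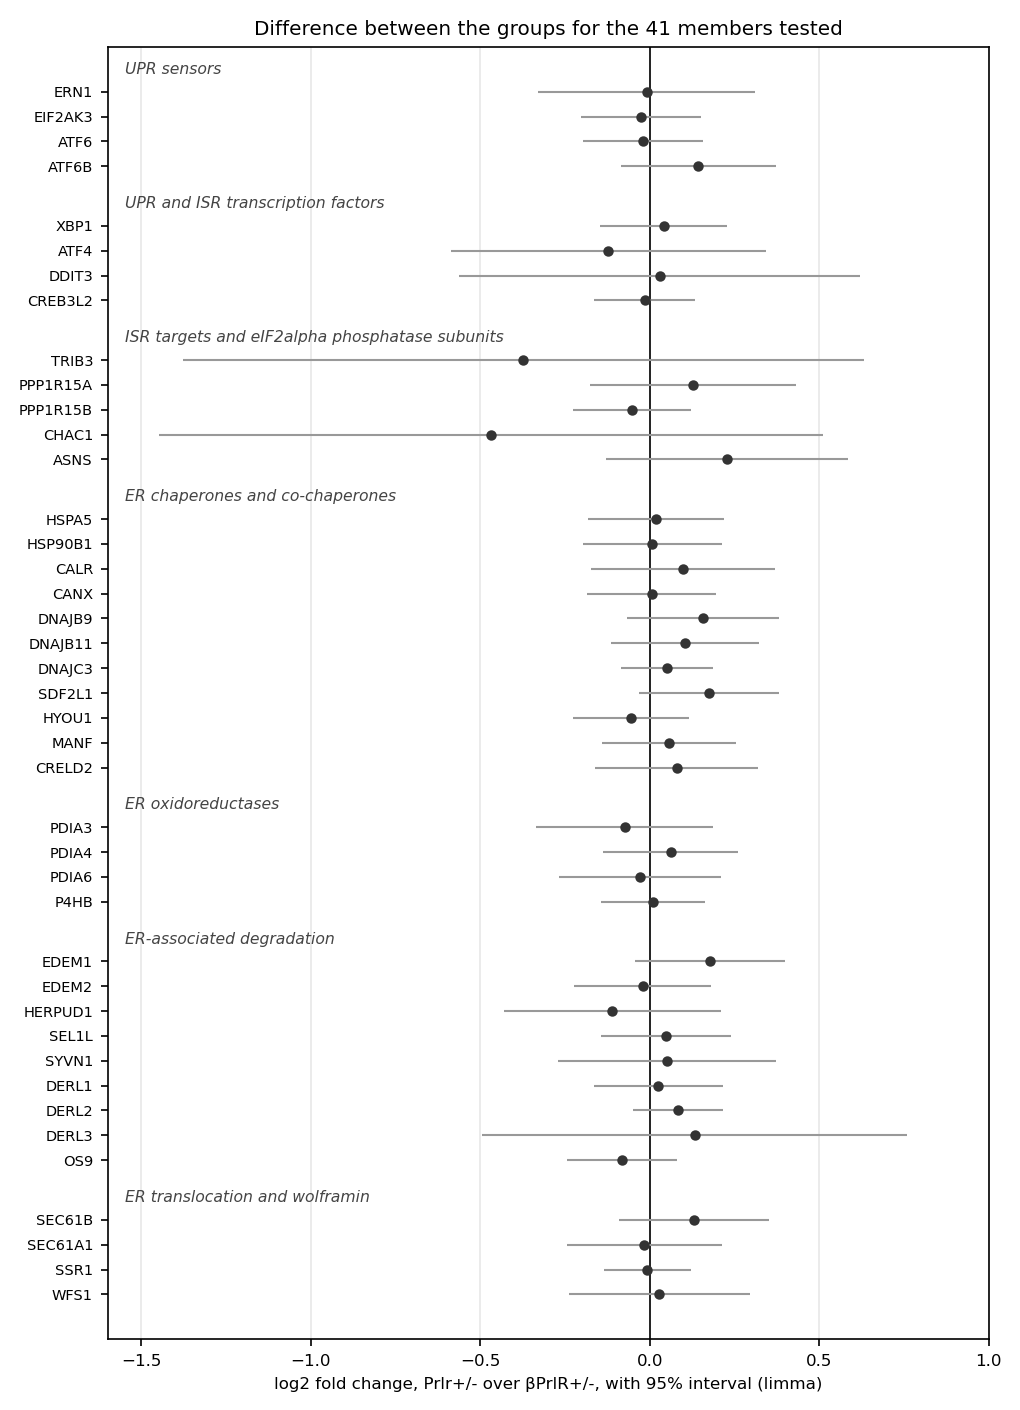
Log2 fold change of Prlr+/- (n = 3) over βPrlR+/- mice (n = 4) for the 41 genes tested, in their functional groups, with the 95% interval of limma as a line. All intervals hold 0, and the widest are those of TRIB3 and CHAC1.

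The ER stress sensors were expressed at moderate levels, and none of the 4 passed the test. ERN1, the IRE1α kinase and endoribonuclease, had scaled TPM values of 39.3, 50.2, 41.5 and 39.2 in βPrlR+/- islets and 35.4, 50.9 and 41.2 in Prlr+/- islets. EIF2AK3, which encodes PERK, had 17.1, 18.3, 17.7 and 18.4 in βPrlR+/- and 16.0, 19.6 and 17.3 in Prlr+/- islets. In both genes the lowest and the highest of the 7 values were in Prlr+/- mice 1 and 2. The log2 fold change was -0.01 (95% interval -0.33 to 0.31) for ERN1 and -0.03 (-0.20 to 0.15) for EIF2AK3.

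ATF6, the membrane-bound transcription factor precursor, had 24.7, 27.3, 27.2 and 28.5 in βPrlR+/- islets and 25.5, 25.2 and 29.1 in Prlr+/- islets. Its paralogue ATF6B had 24.6, 20.9, 20.3 and 20.3 in βPrlR+/- and 22.3, 27.1 and 22.4 in Prlr+/- islets. For ATF6B the highest value was in a Prlr+/- mouse, but βPrlR+/- mouse 1 exceeded the other 2. Its log2 fold change was 0.14 ± 0.10 (SE), with an unadjusted p of 0.184 and an adjusted p of 1.0 in limma.

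XBP1, the transcription factor of the IRE1α arm, had the highest mean scaled TPM of the factors in the set, and its transcript forms report on IRE1α activity. IRE1α removes 26 bases from the mRNA, which shifts the reading frame. The stretch is shown because it is all that separates the form that encodes the active factor from the precursor. In the GENCODE M21 transcript of Xbp1 it spans bases 818 to 843, within the coding sequence on the plus strand. The 26 excised bases are in capitals in the unspliced form and are missing from the spliced one.
XBP1 unspliced: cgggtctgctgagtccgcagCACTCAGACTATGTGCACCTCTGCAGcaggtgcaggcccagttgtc
XBP1 spliced: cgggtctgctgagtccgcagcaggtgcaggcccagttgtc
Computed from this transcript, the reading frame had 267 codons with the 26 bases and 371 codons without them.

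Total XBP1 had scaled TPM values of 186, 175, 152 and 165 in βPrlR+/- islets and 173, 172 and 176 in Prlr+/- islets. The Prlr+/- values lay inside the range of the βPrlR+/- values, and the log2 fold change was 0.04 (95% interval -0.15 to 0.23). The deposited tables list 2 transcripts of XBP1, the spliced and the unspliced RefSeq record. The spliced form had scaled TPM values of 116, 102, 91.6 and 96.0 in βPrlR+/- and 121, 109 and 108 in Prlr+/- islets. The unspliced form had 69.5, 73.8, 60.1 and 68.6 in βPrlR+/- and 52.1, 62.9 and 68.0 in Prlr+/- islets. The spliced form was thus the larger in every mouse.

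As a share of XBP1 TPM, a measure that needs no scaling between mice, the spliced form made up 62.5%, 57.9%, 60.4% and 58.3% in βPrlR+/- mice. In Prlr+/- mice it made up 69.9%, 63.4% and 61.5%. The groups overlapped only in that βPrlR+/- mouse 1 lay above Prlr+/- mouse 3. The mean share was 59.8% ± 2.12 in βPrlR+/- (SD, n = 4) and 64.9% ± 4.42 in Prlr+/- islets (SD, n = 3), a difference of 5.13 percentage points. A two-sided exact permutation test gave p = 0.0857, with 3 of the 35 splits of the mice as far apart, where the smallest p the design allows is 0.0286. Without Prlr+/- mouse 1 the difference was 2.64 points (exact p = 0.20, where the smallest p possible was 0.0667). The 2 forms share nearly all of their sequence, so these estimates rest on the reads that cover the 26 bases or any difference at the ends of the records.

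**Figure D2:**
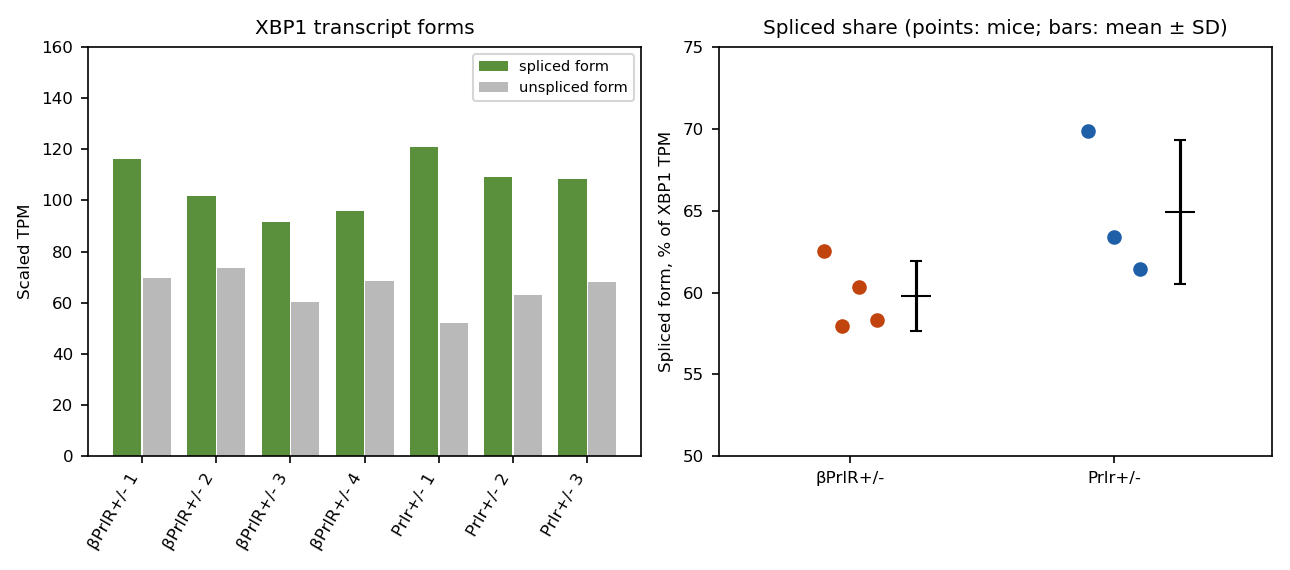
Left, scaled TPM of the spliced and unspliced XBP1 transcripts in each mouse; right, the spliced form as a percentage of XBP1 TPM, with each mouse as a point and the group mean ± SD as a bar, on an axis that starts at 50%. The highest share, 69.9%, is in Prlr+/- mouse 1, and the lowest of the Prlr+/- mice, 61.5%, lies below βPrlR+/- mouse 1.

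The ER chaperones, which bind unfolded chains and hold them in the ER lumen, ranged widely in level, from a mean of 40.9 scaled TPM for CRELD2 to 574 for HSPA5. HSPA5 (BiP), the Hsp70 of the ER and the chaperone that holds the sensors inactive, led with a scaled TPM of 573, 599, 518 and 593 in βPrlR+/- islets and 572, 553 and 608 in Prlr+/- islets. The groups overlapped, with means of 571 ± 37.0 (SD, n = 4) and 578 ± 28.0 (SD, n = 3). Its log2 fold change was 0.02 (95% interval -0.18 to 0.22). HSP90B1 (GRP94), the Hsp90 of the ER, followed with 415 to 477 in βPrlR+/- and 415 to 477 in Prlr+/- islets. CALR, the lectin chaperone calreticulin, had 314 to 430 in βPrlR+/- and 374 to 413 in Prlr+/- islets, and its membrane-bound relative CANX had 116 to 138 and 122 to 135. Each of the 11 chaperones varied little, with a coefficient of variation over the 7 mice of 3.96% to 10.3%.

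Many chaperone promoters are known for an element through which ATF6 and XBP1 act. The ER stress response element (ERSE) was searched as CCAAT followed by CCACG at a distance of 9 bases, and its other form, ERSE-II, as ATTGG followed by CCACG at a distance of 1 base, on both strands in windows from 250 bases before to 50 bases after the start (RefSeq, GRCm38.p6). Of the 42 genes, 36 matched, with 37 windows. ERSE was found in 9 genes, or 24.3% of their windows, against 0.119% of all 32851 windows. They were HSPA5, HSP90B1, CALR, CANX, DNAJC3, CRELD2, PDIA6, DERL3 and SYVN1. ERSE-II was found in HERPUD1 and DNAJB11, against 0.0365% of all windows. A further element searched, the core of the unfolded protein response element (TGACGTGG), was found in 0 of the 37 windows, against 0.676% of all windows. A match is a description of letters, not a site shown to be bound in these islets.

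The stretches around the matches of 5 abundant folding genes are shown because they hold the shared element; the capitals mark the ERSE match, read in the direction of the gene, and distances are counted back from the start.
HSPA5, chr2:34772005-34772063, plus strand, bases -85 to -27: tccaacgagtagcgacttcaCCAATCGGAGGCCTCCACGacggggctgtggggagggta
HSP90B1, chr10:86705513-86705676, minus strand, bases -232 to -69: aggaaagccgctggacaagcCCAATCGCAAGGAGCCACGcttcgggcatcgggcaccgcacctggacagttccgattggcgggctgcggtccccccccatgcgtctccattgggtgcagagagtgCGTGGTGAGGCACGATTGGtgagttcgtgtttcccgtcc
CALR, chr8:84847055-84847113, minus strand, bases -182 to -124: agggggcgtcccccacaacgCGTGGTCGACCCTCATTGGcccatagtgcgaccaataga
DNAJC3, chr14:118937807-118937865, plus strand, bases -125 to -67: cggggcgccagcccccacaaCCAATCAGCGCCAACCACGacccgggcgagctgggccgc
PDIA6, chr12:17266471-17266529, plus strand, bases -118 to -60: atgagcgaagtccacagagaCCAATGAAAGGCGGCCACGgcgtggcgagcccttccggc
HSP90B1 holds 1 match on each strand, and in CALR the match is on the opposite strand, so its letters appear as the reverse complement.

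For the 11 genes with an ERSE or ERSE-II the log2 fold changes had their median at 0.05, 9 above 0 and 2 below. The 24 tested genes with neither in their window had a median of 0.03, with 14 above 0 and 10 below. In neither set did a gene pass the test. The lowest value was in βPrlR+/- mouse 3 for 8 of the 11 and for 12 of the 24, on scaled TPM. The median level was 128 scaled TPM for the 11 and 48.0 for the 24. The part of that mouse and of the level in these counts was not tested.

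Among the remaining chaperones was the gene with the smallest p of the set. SDF2L1, a partner of BiP's co-chaperones, had scaled TPM values of 65.4, 59.97, 52.5 and 56.0 in βPrlR+/- islets and 61.0, 68.3 and 68.7 in Prlr+/- islets. Prlr+/- mice 2 and 3 held the highest values, while Prlr+/- mouse 1 lay within the other group. Its log2 fold change was 0.18 ± 0.09 (SE), with an unadjusted p of 0.0858 and an adjusted p of 1.0 in limma. DNAJB9 (ERdj4), a J-domain co-chaperone of BiP and an XBP1 target, had 174, 174, 143 and 165 in βPrlR+/- and 168, 198 and 182 in Prlr+/- islets. Its log2 fold change was 0.16 ± 0.10 (SE; adjusted p = 1.0 in limma). HYOU1, the exchange factor of BiP, had 146, 147, 131 and 152 in βPrlR+/- and 131, 143 and 142 in Prlr+/- islets, and was the only chaperone with a log2 fold change below 0, at -0.06 ± 0.07 (SE). The other co-chaperones and secreted helpers, DNAJB11, DNAJC3, MANF and CRELD2, had log2 fold changes of 0.05 to 0.10.

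Over all genes tested, 48.3% had a log2 fold change below 0. Of the 11 chaperones, 10 were above 0, with a median of 0.06, and none passed the test. This lean rested on 1 mouse, since without βPrlR+/- mouse 3 the median was -0.00. On scaled TPM, βPrlR+/- mouse 3 held the lowest value of 24 of the 41 genes (58.5%), against 17.6% of all genes tested, and of 13 of the 15 chaperones and oxidoreductases. These counts changed with the scaling, in which the mouse had the highest size factor, 1.11. On TPM as deposited it held the lowest value of 4 of the 41 genes, against 2.76% of all genes tested. The lowest value of 20 was in Prlr+/- mouse 3, the mouse with the highest insulin share. Prlr+/- mouse 3 held the lowest value of 43.7% of all genes tested. The chaperones and oxidoreductases made up 0.320% of the deposited TPM in βPrlR+/- mouse 3, within the 0.286% to 0.354% of the other mice. In βPrlR+/- mouse 3 the insulin genes took 46.1% of the TPM, against 52.7% to 58.9% in the others. A lower insulin share leaves a larger share of TPM to all other genes. βPrlR+/- mouse 3 had the lowest summed β-cell markers of the 7 mice, at 451800 against 538790 or more in the others. Most of that sum was insulin, with INS at 314710 and INS1 at 101200, so it largely repeats the insulin share. The summed acinar markers of this mouse were the highest, at 50426, beside 49153 in βPrlR+/- mouse 1. On scaled TPM the highest values were spread over several mice, with 11 genes in βPrlR+/- mouse 1 (11.2% of all genes tested), 11 in Prlr+/- mouse 3 (15.3%) and 10 in Prlr+/- mouse 2 (23.2%). The part of these cell markers in the low scaled values of mouse 3 was not tested.

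**Figure D3:**
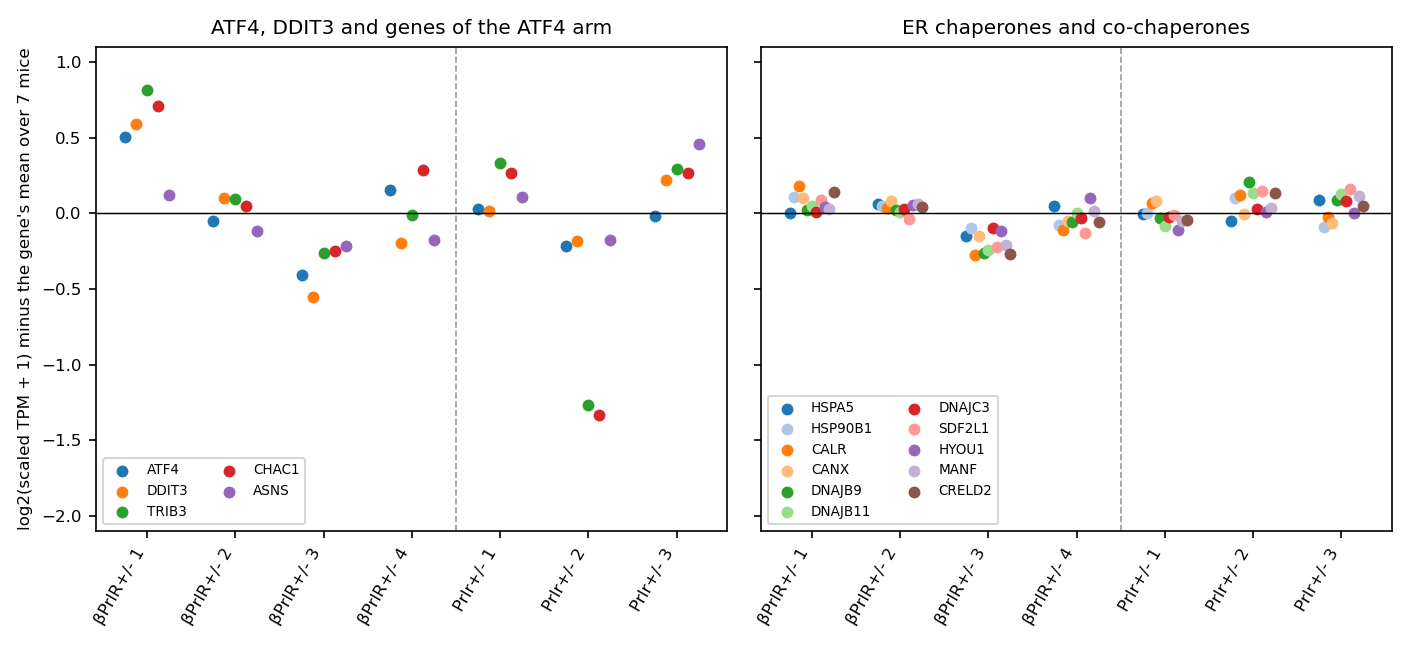
Each point is a gene's log2(scaled TPM + 1) in a mouse minus that gene's mean over the 7 mice; left, ATF4, DDIT3, TRIB3, CHAC1 and ASNS; right, the 11 ER chaperones and co-chaperones. The dashed line parts the 4 βPrlR+/- from the 3 Prlr+/- mice; TRIB3 and CHAC1 drop by more than 1 in Prlr+/- mouse 2, and the chaperones sit together below 0 in βPrlR+/- mouse 3 on this scale, in which that mouse has the highest size factor.

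The oxidoreductases, which make and rearrange disulfide bonds such as those of proinsulin, were at levels close to those of the chaperones. PDIA3, which acts on glycoproteins bound to calnexin and calreticulin, had scaled TPM values of 384 to 423 in βPrlR+/- and 320 to 434 in Prlr+/- islets. P4HB, the classical protein disulfide isomerase, had 353 to 375 in βPrlR+/- and 349 to 373 in Prlr+/- islets. PDIA6 had 179 to 226 in βPrlR+/- and 190 to 219 in Prlr+/- islets, and PDIA4 had 57.5 to 72.2 and 66.1 to 72.1. P4HB was the steadiest gene of the set, with a coefficient of variation of 2.82%, and the log2 fold changes of the 4 ran from -0.07 to 0.06.

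The names ERO1A and ERO1B stand in the table in place of ERO1L and ERO1LB, which are older symbols of these oxidases; they lie outside the list and were looked up after its other values were known. ERO1A had 22.3, 23.9, 23.0 and 23.0 in βPrlR+/- and 22.4, 23.9 and 25.4 in Prlr+/- islets. ERO1B, the form of secretory cells such as the β-cell, had 443, 285, 346 and 270 in βPrlR+/- and 380, 512 and 402 in Prlr+/- islets. The highest ERO1B value was in Prlr+/- mouse 2, and βPrlR+/- mouse 1 lay among the Prlr+/- mice. The log2 fold change of ERO1B was 0.38 ± 0.19 (SE), with an adjusted p of 1.0 in limma and a two-sided exact permutation p of 0.20.

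Genes of ER-associated degradation, which draw misfolded proteins out of the ER for the proteasome, likewise did not pass the test. EDEM1, a mannosidase-like factor that marks glycoproteins for removal, had scaled TPM values of 30.9, 25.2, 27.6 and 27.9 in βPrlR+/- islets and 28.6, 35.6 and 31.0 in Prlr+/- islets. Its groups overlapped through βPrlR+/- mouse 1, and its log2 fold change was 0.18 ± 0.09 (SE; unadjusted p = 0.10 and adjusted p = 1.0 in limma). DERL2, a membrane factor of the removal channel, had 25.7, 24.5, 23.5 and 23.2 in βPrlR+/- and 25.2, 25.4 and 26.4 in Prlr+/- islets, with a log2 fold change of 0.08 ± 0.06 (SE). OS9, a lectin that delivers clients to the ubiquitin ligase, had 65.0, 68.7, 59.2 and 66.6 in βPrlR+/- and 62.0, 58.1 and 63.5 in Prlr+/- islets, with a log2 fold change of -0.08 ± 0.07 (SE). The differences of DERL2 and OS9 were no larger than the range within the βPrlR+/- mice.

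HERPUD1, a scaffold of the ligase complex, had 141, 173, 158 and 169 in βPrlR+/- and 178, 121 and 150 in Prlr+/- islets. Prlr+/- mice thus held both the highest and the lowest value, and the log2 fold change was -0.11 ± 0.14 (SE). HERPUD1 was the gene of the set with matches to elements of both arms in its window, an ERSE-II and, further from the start, TTGCATCA, the reverse strand of TGATGNAA, which is the C/EBP-ATF response element (CARE) that ATF4 acts through. Its stretch is shown with both matches in capitals.
HERPUD1, chr8:94386297-94386407, plus strand, bases -132 to -22: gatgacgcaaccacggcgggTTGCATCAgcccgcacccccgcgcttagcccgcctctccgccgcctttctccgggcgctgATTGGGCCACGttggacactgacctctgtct

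SEL1L and SYVN1, the core of the HRD1 ubiquitin ligase, had ranges over the 7 mice of 37.4 to 46.6 and of 22.7 to 35.2. DERL3, a derlin of secretory tissues, varied the most of this group, from 5.85 in Prlr+/- mouse 1 to 14.5 in Prlr+/- mouse 2, a coefficient of variation of 30.5%. Among the genes of the translocon, SEC61B had 271 to 342 in βPrlR+/- and 312 to 337 in Prlr+/- islets. SEC61A1, the channel itself, and SSR1, its neighbour, had log2 fold changes of -0.02 and -0.01. WFS1 (wolframin), loss of which causes a syndrome with diabetes, had 38.7 to 53.0 in βPrlR+/- and 43.0 to 50.6 in Prlr+/- islets.

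**Figure D4:**
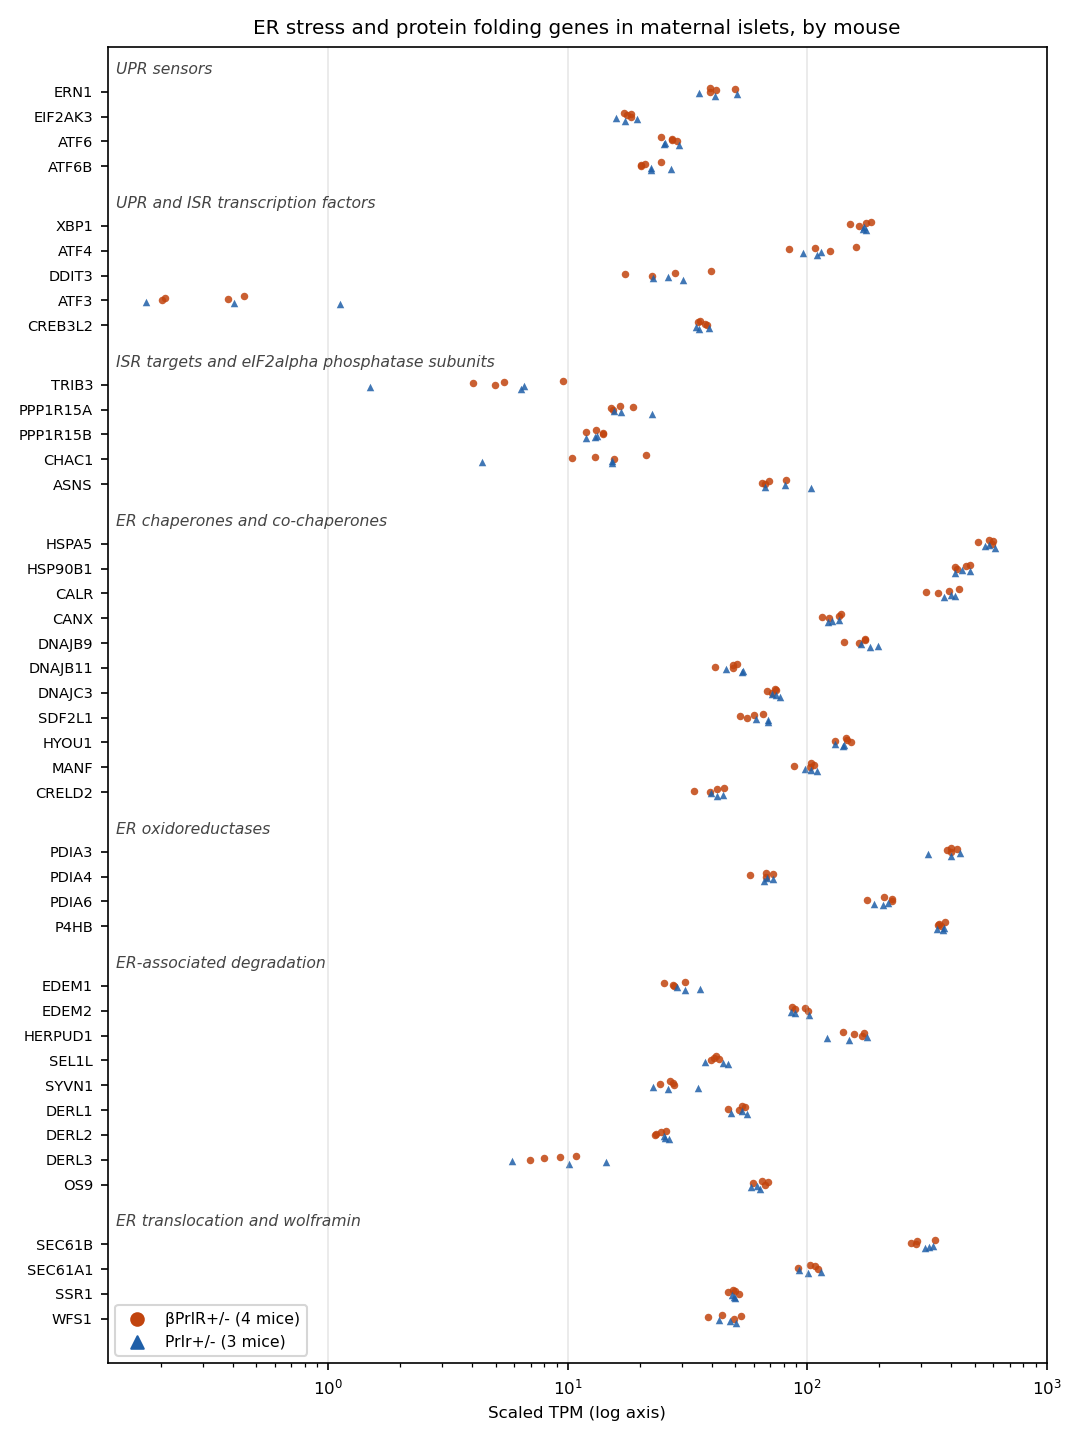
Scaled TPM on a log axis of the 42 genes in each of the 4 βPrlR+/- (circles) and 3 Prlr+/- mice (triangles), by functional group. HSPA5 stands highest, at 518 to 608, ATF3 lowest, at 0.174 to 1.12, and the spread between mice is widest for ATF3, TRIB3 and CHAC1.

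In the ATF4 arm the extremes were single mice and not groups. ATF4, the transcription factor translated when eIF2α is phosphorylated, had scaled TPM values of 159, 108, 84.2 and 125 in βPrlR+/- islets and 114, 96.0 and 110 in Prlr+/- islets. The highest and the lowest value were both in βPrlR+/- mice, 1 and 3. Its log2 fold change was -0.12 ± 0.20 (SE), with an adjusted p of 1.0 in limma. DDIT3 (CHOP), the factor tied to cell death in prolonged ER stress, had 39.6, 27.9, 17.4 and 22.5 in βPrlR+/- and 26.2, 22.7 and 30.4 in Prlr+/- islets. It had the same mice at its extremes as ATF4, and its log2 fold change was 0.03 ± 0.25 (SE). ATF3, a stress-induced factor of the same arm, was near the floor and was not tested, at 0.445, 0.208, 0.380 and 0.203 in βPrlR+/- and 0.174, 0.405 and 1.12 in Prlr+/- islets.

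TRIB3 and CHAC1, targets of ATF4 and CHOP, gave the widest spread among the genes tested. TRIB3, a pseudokinase that restrains AKT and ATF4, had 9.59, 5.42, 4.03 and 4.97 in βPrlR+/- islets and 6.59, 1.497 and 6.37 in Prlr+/- islets. CHAC1, which degrades glutathione, had 21.2, 13.04, 10.4 and 15.6 in βPrlR+/- and 15.3, 4.37 and 15.3 in Prlr+/- islets. In both genes βPrlR+/- mouse 1 was the highest and Prlr+/- mouse 2 far below all others, while Prlr+/- mice 1 and 3 lay within the βPrlR+/- range. The log2 fold change was -0.37 ± 0.43 (SE) for TRIB3 and -0.47 ± 0.42 (SE) for CHAC1, both with an adjusted p of 1.0 in limma. Both signs rested on Prlr+/- mouse 2, without which the log2 fold change was 0.15 for TRIB3 and 0.067 for CHAC1.

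ASNS, asparagine synthetase and a target of ATF4 in amino acid shortage, had 81.9, 69.1, 64.6 and 66.4 in βPrlR+/- and 81.0, 66.5 and 104 in Prlr+/- islets. Its highest value was in Prlr+/- mouse 3, and its log2 fold change of 0.23 ± 0.15 (SE; adjusted p = 1.0 in limma) was the highest of the set. That rank rested on the same mouse, since without it the value was 0.063. PPP1R15A (GADD34), the inducible subunit that directs the phosphatase to eIF2α, had 15.2 to 18.7 in βPrlR+/- and 15.6 to 22.4 in Prlr+/- islets. Its constitutive counterpart PPP1R15B had 11.91 to 14.03 and 11.95 to 13.2. None of the 5 genes of this group passed the test, and their median log2 fold change was -0.05.

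CARE, searched as TGATGNAA on both strands, was found in 5 of the 36 genes with a window, namely CHAC1, ASNS, ATF3, HERPUD1 and TRIB3, or 13.5% of their windows, against 3.97% of all windows. In TRIB3 the match, TTACATCA, began 15 bases after the start, and in the windows of DDIT3 and ATF4 these letters were not found. The stretches of CHAC1 and ASNS are shown with the match in capitals, since the 2 genes share the element but had their extremes in different mice.
CHAC1, chr2:119351029-119351076, plus strand, bases -213 to -166: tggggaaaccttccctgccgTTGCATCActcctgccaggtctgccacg
ASNS, chr6:7693210-7693252, minus strand, bases -43 to -1: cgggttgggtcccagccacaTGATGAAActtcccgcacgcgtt

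How ATF4, DDIT3, TRIB3, CHAC1 and ASNS went together across the 7 mice is described over their 10 pairs, with no test, since these genes and pairs were chosen after the levels had been seen and the mice of both groups are pooled. TRIB3 and CHAC1 had the highest Pearson correlation, r = 0.98, but not the highest rank correlation, with Spearman's rho = 0.75. Without βPrlR+/- mouse 1 and Prlr+/- mouse 2, the 2 mice farthest from the median of TRIB3, r was 0.79. ATF4 and CHAC1 had r = 0.70 and rho = 0.93, and r was 0.86 without βPrlR+/- mice 1 and 3. ATF4 and DDIT3 had r = 0.84 and rho = 0.54, and this relation rested on βPrlR+/- mice 1 and 3, without which r was -0.00. DDIT3 and ASNS had r = 0.66 and rho = 0.93, and r was 0.80 without the same mice. ATF4 and ASNS had the lowest r of the 10 pairs, 0.38, with rho = 0.50, and r was 0.08 without those mice. In the other 5 pairs r was 0.49 to 0.70 and rho 0.50 to 0.79. With each gene taken as its deviation from the mean of its group, r was 0.98 for TRIB3 with CHAC1, 0.68 for ATF4 with CHAC1, 0.87 for ATF4 with DDIT3 and 0.73 for DDIT3 with ASNS. It was higher than without this step for the other pairs of ASNS, at 0.87 with TRIB3, 0.84 with CHAC1 and 0.58 with ATF4. All 5 genes in a mouse share 1 library and 1 size factor.

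The spread between mice differed from gene to gene, also within a group, and its differences between groups are described without a test. The highest value was under 1.5 times the lowest in 34 of the 41 genes and above 2 times in 4, which were DDIT3, TRIB3, CHAC1 and DERL3. The median coefficient of variation over the 7 mice was 7.10% for the chaperones, 7.97% for the oxidoreductases, 7.43% for the degradation genes, 8.74% for the sensors and 13.6% for the transcription factors. It was 18.4% for the ISR targets and phosphatase subunits, where TRIB3 reached 45.3% and CHAC1 38.3% but PPP1R15B 6.58%, and DERL3 of the degradation genes reached 30.5%. The median residual SD on the log2 scale was 0.12 for the 41 genes, 0.11 for the chaperones and 0.23 for the ISR targets and phosphatase subunits, and over all genes tested it was 0.13. Over the 6169 genes tested with a mean TPM of at least 10, which include 39 of the 41, it was 0.12.

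Of the 42 genes, 21 had several transcripts in the tables. The share of the most abundant transcript did not separate the groups in any of the 21. The same count over all genes with several transcripts was not made, so nothing particular to the set can be read from it. It varied the most between mice in CANX, from 51.3% to 74.5%, in DDIT3, from 74.4% to 93.5%, and in DERL3, from 73.2% to 90.9%. In XBP1 it ran from 57.9% to 69.9%, as described above for the spliced form.

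Other genes of these pathways, 122 in 7 further lists of ISR targets, eIF2 factors, chaperones, translocation, glycosylation, degradation and ER stress apoptosis, were taken alongside. Of the 113 tested, 0 were called higher and 0 lower by limma at an adjusted p under 0.05, against 0.0674% of all genes tested for either direction. An unadjusted p under 0.05 was found in 2 of the 113, or 1.77%, which is below the 4.52% of all genes tested. Their median log2 fold change was 0.03, with 75 above 0 and 38 below, where 48.3% of all genes tested were below 0. The 2 genes were BAX and PDIA5. BAX, a pore-forming effector of apoptosis, had scaled TPM values of 55.3, 48.2, 47.6 and 58.7 in βPrlR+/- and 42.4, 38.5 and 44.5 in Prlr+/- islets. Each Prlr+/- value was below each βPrlR+/- value, with a log2 fold change of -0.32 ± 0.09 (SE; unadjusted p = 0.0108 and adjusted p = 0.836 in limma). PDIA5, a further disulfide isomerase, had 23.3, 21.9, 19.1 and 20.3 in βPrlR+/- and 22.98, 24.2 and 24.99 in Prlr+/- islets, with a log2 fold change of 0.18 ± 0.08 (SE; adjusted p = 1.0 in limma).

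KDELR3, a receptor that returns ER proteins from the Golgi, had 5.01, 5.30, 5.36 and 4.95 in βPrlR+/- and 4.89, 4.51 and 3.88 in Prlr+/- islets. Its groups also did not overlap, at a log2 fold change of -0.18 ± 0.08 (SE; adjusted p = 1.0 in limma). Among the genes of the 7 lists, KDELR3 and BAX were the 2 whose groups did not overlap, or 1.77% of the 113, below the 4.95% of all genes tested. The other genes named by rank were SLC3A2, the heavy chain of amino acid transporters, at a log2 fold change of 0.19 ± 0.10 (SE), ATP2A3, an ER calcium pump, at 0.19 ± 0.10 (SE), and GANAB, the glucosidase II subunit, at -0.10 ± 0.06 (SE), each with an adjusted p of 1.0 in limma.

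Other cells in the islet preparations are given by their marker lists. Acinar cells are rich in ER, and of 28 acinar markers 22 had a row and none of those was at 0 in all mice. Their summed scaled TPM ran from 5975 to 50426 in βPrlR+/- and from 16400 to 40789 in Prlr+/- islets, an 8.44-fold range over the 7 mice. The log2 fold change was above 0 in 20 of their 22 tested rows, AMY2B having a pair of rows, with a median of 0.11, and none passed the test. Over the same mice HSPA5 ranged 1.18-fold. With acinar markers as a covariate the median log2 fold change of the set was 0.033, against 0.025 without. In that fit 0 of the 41 genes were called and 0 changed sign. PDIA2, the disulfide isomerase of acinar cells, ran from 7.32 to 66.8, with βPrlR+/- mouse 2 lowest and mouse 3 highest, the same mice as for the acinar sum. The 7 delta- and PP-cell markers summed to 18229 to 21374 in βPrlR+/- and 15790 to 17495 in Prlr+/- islets, without overlap. Theirs was the only marker sum given here to do so, and of all genes tested 4.95% did. Of the 7, 6 had a log2 fold change below 0, and none passed the test. All 8 α-cell markers had a log2 fold change below 0, with a median of -0.20, and none passed the test. Their sums overlapped, at 15270 to 23136 in βPrlR+/- and 15292 to 15802 in Prlr+/- islets. Of the 9 endothelial markers, all had a log2 fold change below 0 and none passed the test. Their summed level was 187 to 220 in βPrlR+/- and 155 to 191 in Prlr+/- islets. Plasma and B-cell markers, of which 7 of 10 had a row and 2 were tested, summed to 13.8 to 24.1 in βPrlR+/- and 15.3 to 22.3 in Prlr+/- islets. Of 12 β-cell markers tested, 11 had a log2 fold change above 0, with a median of 0.33, and none passed the test. Macrophage markers summed to 44.6 to 122 in βPrlR+/- and 73.0 to 93.8 in Prlr+/- islets, and fibroblast and pericyte markers to 46.5 to 65.9 and 35.002 to 56.1. Immediate early and dissociation genes, which rise when tissue is handled, summed to 139 to 200 in βPrlR+/- islets and to 131, 137 and 243 in Prlr+/- islets, with the highest sum in Prlr+/- mouse 3. That mouse also held the highest ATF3 and the highest value of 11 of the 41 genes, against 15.3% of all genes tested. Among the 11 were ASNS and PPP1R15A, but also HSPA5, SDF2L1 and DERL2. ATF4, DDIT3, TRIB3 and CHAC1 were highest in βPrlR+/- mouse 1. The part of handling in these values was not tested. The part of β-cell or other endocrine content in the fold changes of the folding genes was not tested.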

How the data were processed

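Islet RNA of 4 βPrlR+/- and 3 Prlr+/- mice was analysed, with 1 library per mouse and all 7 used throughout. Mice were numbered in the order of their records. The authors enriched poly(A) RNA from 100 to 200 islets per mouse, made strand-specific libraries and assigned reads to mouse RefSeq transcripts with kallisto 0.42.4. No genome build is given in the sources used here. The study's methods call the deposited values FPKM, but they sum to 1000000 in each mouse, and these deposited values were therefore treated as TPM. TPM keeps no depth, so no counting interval is given, and p-values measure the spread between these mice.

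A median-ratio size factor for each mouse scaled the TPM. Genes averaging 0.5 TPM or more (14840 of 34082) were tested on log2(scaled TPM + 1), a scale on which the fold changes of low genes are understated, with limma 3.58.1 in R 4.3.3, a variance trend and Benjamini-Hochberg adjustment over all genes, at 0.05. Intervals are 95% intervals from limma. For single values, all 35 splits of the mice were enumerated in an exact permutation test (two-sided). The fit was first tested on simulated data that held known changes of 1 and 2 on the log2 scale. It recovered 86% and 96.4% of them. Changes as small as those of this set were not simulated. Figures were drawn with matplotlib 3.10.9.

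The members, their groups, the other pathway lists and the marker lists were chosen with earlier results of these data known. Values in every mouse are given for the sensors, XBP1, ATF4, DDIT3 and HSPA5, for the 5 members with the smallest p in each direction, for any member whose groups did not overlap and for members below 0.5 TPM. Of the other pathway lists, the 3 genes with the smallest p in each direction are named. Alternatives were other scalings, pseudocount, filter, variance model, acinar markers as a covariate, threshold, and leaving out each mouse.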

Additional observations from a re-analysis of the deposited data

Results flagged for a closer look

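Among 51 values tested in the 4 βPrlR+/- mice, a single mouse stood apart from the other 3 by Dixon's test in 2, where chance gives about 1 in 20; groups of 3 were not tested. In ATF6B, βPrlR+/- mouse 1 was the high value, with a gap of 0.851 of the range. In ATP2A3 it was the same mouse, with a gap of 0.859 of the range.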

How the results depend on the processing

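Under every alternative run, 0 of the 41 members were called, at an adjusted p under 0.1 as well. Over all genes, the count called was 10, and it was 18 with a pseudocount of 0.1, 4 with every gene above 0 tested, 6 with acinar markers as a covariate, 20 at an adjusted p under 0.1, and 2 to 13 leaving out each mouse (2 without βPrlR+/- mouse 4, and 5 without βPrlR+/- mouse 1, Prlr+/- mouse 1 or Prlr+/- mouse 2).

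TPM as deposited, in which the insulin share enters every gene, shifted all tested genes to a median of -0.12 on the log2 scale. There the median was -0.12 for the members, -0.16 for the sensors, -0.13 for the transcription factors, -0.19 for the ISR targets and phosphatase subunits, -0.088 for the chaperones, -0.16 for the oxidoreductases, -0.10 for the degradation genes and -0.13 for the translocation genes, 19 members changed sign, DERL2 was at -0.057, and 1 member, OS9, separated the groups (8.71% of all genes). Under the other settings 0 to 11 of the 41 members changed sign. Of the tested members given in every mouse, 11 changed sign in some setting, 9 of them with a log2 fold change within its SE of 0 and the other 2 being CHAC1 and DERL2.

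Leaving out each mouse, the number of members that separated the groups ran from 0 to 5, the median of the ISR targets from -0.10 to 0.15 and that of the degradation genes from -0.015 to 0.097; CHAC1 ran from -0.74 to 0.067, above 0 only without Prlr+/- mouse 2, as TRIB3 was (-0.65 to 0.15), and ASNS from 0.063 to 0.38. The difference in spliced XBP1 ran from 2.64 to 6.86 points with exact p of 0.0667 to 0.20. With fewer mice the smallest possible p is higher. The exact p of 0.0667 without Prlr+/- mouse 3 and of 0.10 without βPrlR+/- mouse 1 were the smallest possible there, and the shares did not overlap. The cause was not tested. No paired analysis was possible because the labels give the groups no shared replicate numbers. TPM keeps no depth, and 3 mice in a group limit what the tests can show.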
